A study of Mus musculus with 6 samples.

Results

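Nucleoporins and nuclear transport receptors were followed in mouse Ba/F3-N cells exposed to N-arachidonoyl dopamine (NADA). The genes were picked by a rule on symbols: Nup followed by digits, Kpna, Kpnb, Ipo, Xpo or Tnpo followed by a digit, and Cse1l, Ran, Ranbp1, Ranbp2, Rangap1, Rcc1, Aaas, Seh1l and Tpr. This gave 48 of the 18193 genes with a probe set annotated to a single gene. Tpr is not among the 48, and 3 matching probe sets annotated to several genes were left out. The rule uses no measured value, but the genes, related genes and motifs were chosen with earlier results of these data known. Of the 48, 21 code for nucleoporins, 23 for transport receptors and 4 for proteins of the Ran cycle.

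Ba/F3-N is a mouse bone marrow-derived line, made from Ba/F3 cells, that carries oncogenic NRAS-G12D, and every sample, controls included, carries it. NADA is an endogenous lipid in which arachidonic acid is linked to dopamine. The 2 groups were cells given 1 µM NADA and cells given an equal volume of vehicle, each collected after 12 h, with 3 samples and 1 Affymetrix Mouse Genome 430 2.0 array per sample. Nothing in the labels says whether the samples came from separate cultures or how many clones the line holds, and the p-values below cover only how much these particular arrays vary, a spread that may be technical.

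The nuclear pore is a ring of nucleoporins set in the nuclear envelope, through which proteins and RNA pass between cytoplasm and nucleus. Cargo is carried by importins and exportins, and the direction of travel is set by the small GTPase Ran, which is kept in its GTP form in the nucleus and its GDP form in the cytoplasm. Dividing cells build new pores in each cycle, and ribosome production makes heavy use of them, since ribosomal proteins are imported and ribosomal subunits exported.

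After NADA, mRNA levels of nearly all genes tested from this list were lower than in vehicle. The deposited intensities are linear and were taken as already normalized between arrays. The log2 fold change is the mean log2 intensity in NADA minus that in vehicle, given with the standard error (SE) of a limma fit over 3 arrays per group. Genes with an intensity over all arrays below 38.6, the median probe set, were not tested. This left out 1 of the 48, Kpna7. A gene was called, and is said to have risen or fallen, where its p, adjusted by Benjamini-Hochberg over the 10526 genes of the test, was under 0.05. Of the 47 genes tested 45 fell and 2 rose, Ranbp2 and Kpna4, and the largest adjusted p among them was 0.0191. Of all genes tested 73.3% were called, 37.5% lower and 35.8% higher. The median log2 fold change was -0.72 for the 47 genes and 0.0089 for all genes tested. At least 2-fold lower were 12 of the 47, against 5.99% of all genes tested, and 0 were at least 2-fold higher, against 4.86%. The lowest 25% of all genes, those below a log2 fold change of -0.35, held 38 of the 47.

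In 45 genes every NADA array lay below every vehicle array, and in 2 every NADA array lay above, where 38.7% and 37.2% of all genes tested did so. With such shares, neither a call nor groups without overlap in a single gene below is read as particular to these genes. The spread between arrays of a group was small, with a median SD over the members of 0.053 on the log2 scale and a median SE of the fold change of 0.046. Intensities are relative to the bulk of transcripts on an array, so a lower value per cell and a lower share of the RNA cannot be told apart.

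**Figure D1:**
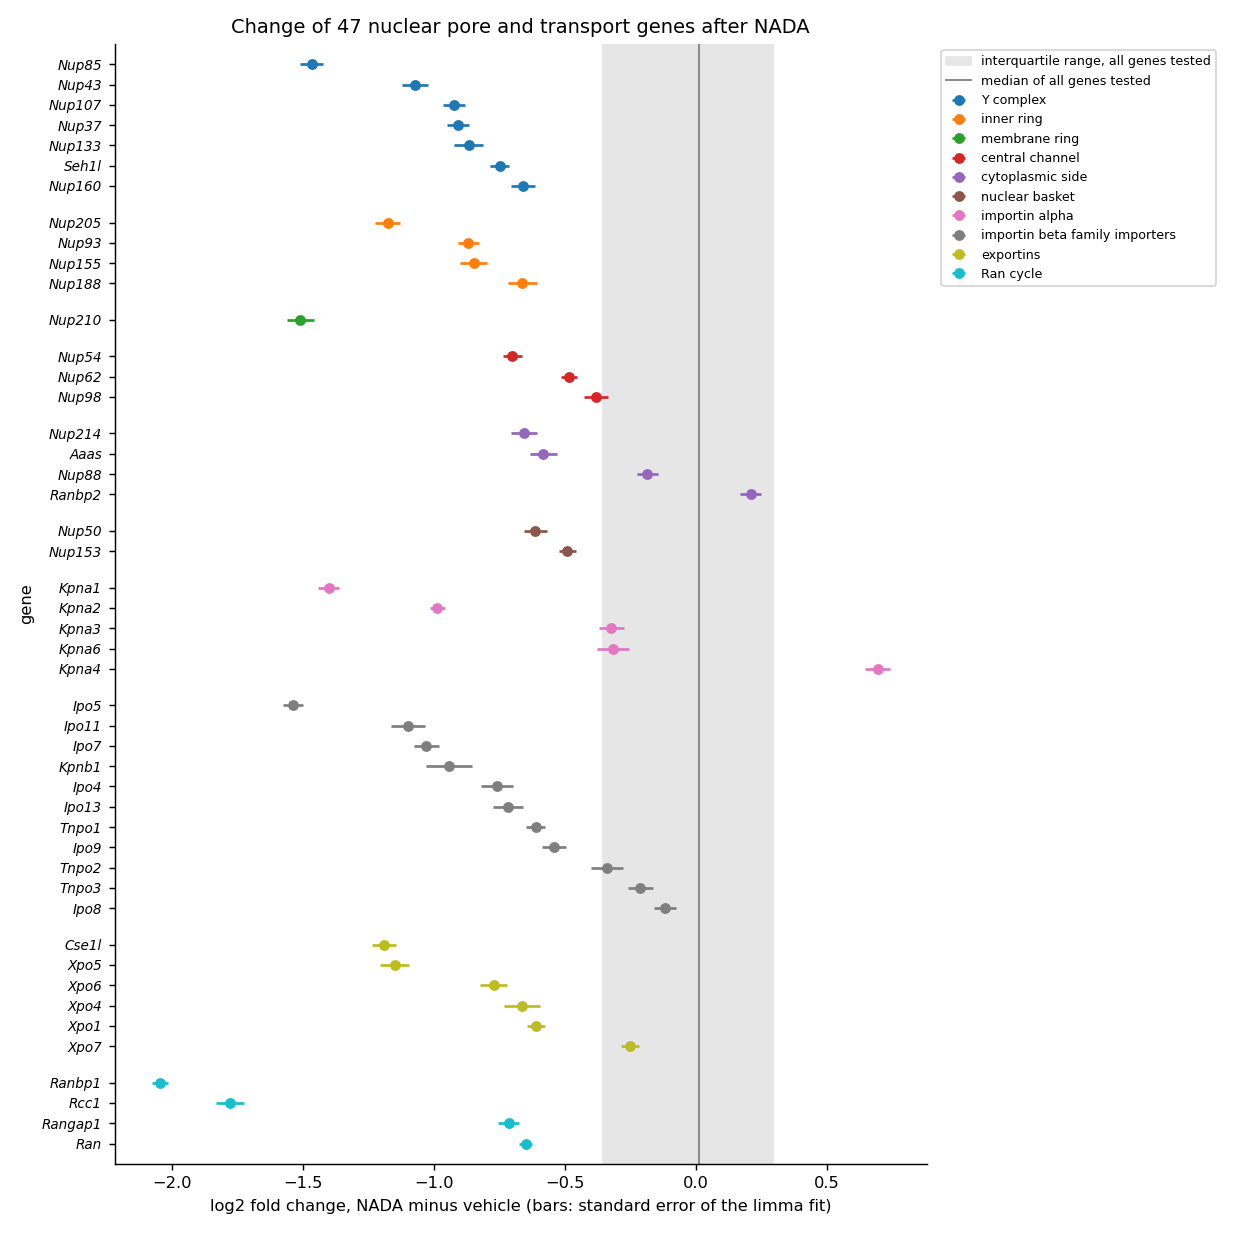
Log2 fold change of the 47 genes tested, NADA minus vehicle (x axis), by gene and role (y axis); points are estimates, bars the SE of the limma fit with 3 arrays per group, and the grey band and line the interquartile range and the median of all 10526 genes tested. Values run from -2.05 for Ranbp1 to 0.69 for Kpna4, and 45 of 47 lie below 0; scaled to the poly-A control RNAs, Ranbp2 turns to -0.37 and Kpna4 stands at 0.11.

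The bacterial poly-A RNAs that are spiked in ahead of labelling were brighter on the NADA arrays, with a mean log2 value of 8.72 ± 0.21 (SD, n = 3) against 8.14 ± 0.01 (SD, n = 3) on the vehicle arrays. Scaling each array to them moved the median of all genes tested from 0.0089 to -0.57 and every log2 fold change down by 0.58. Under that scaling 46 of the 47 genes were called lower and 0 higher, against 76.1% and 6.96% of all genes tested, and the members' median was -1.29. The poly-A values differed between the NADA arrays (SD 0.21), and this error of the scaling factor is shared by all genes. Calls and adjusted p under the poly-A scaling treat it as separate for each gene, so here and below they are description only. The 3′ end of Actb, the beta-actin gene, exceeded its 5′ end by 1.06 ± 0.05 (SD, n = 3) on the log2 scale in NADA and by 0.67 ± 0.04 (SD, n = 3) in vehicle. The part of labelling or RNA quality in the changes below was not tested.

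Markers of blood cells were checked against the label. Ptprc, the pan-leukocyte CD45 gene, stood at mean intensities of 6449 in NADA and 4034 in vehicle, and the interleukin-3 receptor chains Il3ra and Csf2rb were above the 38.6 limit in both groups. Of the pro-B markers, Cd79b (112 and 81.0) and Igll1 were above that limit and Cd79a and Vpreb1 were below it, as was Kit. As deposited, of 9 blood and pro-B markers on the array 6 were tested, 5 rose and 0 fell (35.8% and 37.5% of all genes tested), with a summed intensity of 13710 to 13790 in NADA and 5915 to 6150 in vehicle, a gap made mainly by Csf2rb and Csf2rb2. The 3 T cell, 3 fibroblast and 3 epithelial markers had summed intensities of 80.6 to 124.1 per list and group, with 0 called, and no marker of any list was listed at 0. Of 3 macrophage markers Adgre1 and Csf1r rose (summed intensity 363.8 to 376.0 against 170.5 to 197.6), and of 3 endothelial markers 1 rose and 1 fell (154.5 to 164.3 against 160.6 to 165.6). Scaled to the poly-A control RNAs, Csf2rb (1.18), Csf2rb2 (1.77) and Adgre1 (0.79) were still called higher, while Ptprc (0.10), Cd79b (-0.12) and Il3ra (-0.06) were not called. Under that scaling Igll1 (-0.39), Csf1r (-0.40) and Kdr (-0.38) turned and were called lower, as were Cd3e, Dcn, Epcam and Pecam1. The part of these markers in the result was not tested.

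**Figure D2:**
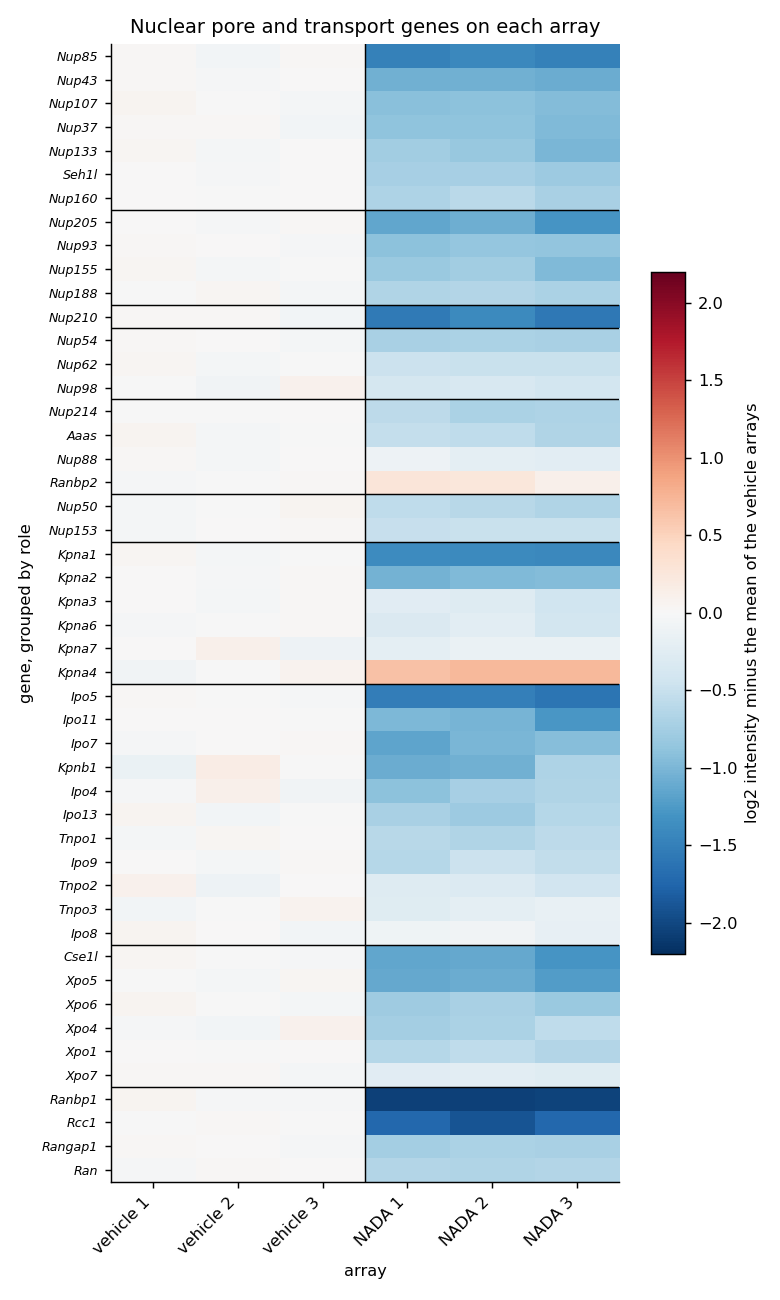
Log2 intensity of all 48 genes (y axis, grouped by role) on each of the 6 arrays (x axis), minus the mean of the 3 vehicle arrays, with blue for lower and red for higher. The 3 NADA columns resemble each other gene by gene, and Ranbp2 and Kpna4 are the red ones with the values as deposited; scaled to the poly-A control RNAs Ranbp2 turns to -0.37.

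The promoters of the genes are described next, and whether they bear on the changes was not tested. RefSeq (GRCm38.p6) gave a start for 39 of the 48 genes, and the 250 bases before each start were searched on both strands for 4 sets of letters. The E-box CACGTG, bound by MYC and MAX among others, stood before 7 of the 39 genes (17.9%), against 10.1% of the 8577 tested genes with a promoter and 6.86% of all 27025 genes in the table. The motif of NRF1 stood before 5 (12.8%, against 2.05% and 0.877%), CCGGAAG, a core bound by ETS factors, before 7 (17.9%, against 16.8% and 7.83%) and CCAAT, bound by NF-Y, before 19 (48.7%, against 40.2% and 37.5%). None of these motifs contains another. Of the 8 genes with a promoter that fell at least 2-fold, 1 held the E-box, 1 the NRF1 letters, 0 the ETS core and 3 the CCAAT box. A match describes the letters and is not a measured binding site.

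The following 6 stretches belong to the gene that fell most (Ranbp1), to the GTPase itself (Ran), to 3 further genes that fell and hold 1 of the motifs (Xpo5, Ipo7, Nup188), and to the gene that rose most (Kpna4). The 3 further genes all hold the E-box or the NRF1 letters, so the stretches do not show how common each motif is. Rcc1 and Nup210, which fell more than these 3, hold none of the 4 motifs and are not printed. None of the 6 stretches holds the ETS core. Each is 5′ to 3′, in the direction of the gene, and capitals mark the letters of the 4 motifs on either strand.
Ranbp1 (chr16:18248695-18248944, minus strand): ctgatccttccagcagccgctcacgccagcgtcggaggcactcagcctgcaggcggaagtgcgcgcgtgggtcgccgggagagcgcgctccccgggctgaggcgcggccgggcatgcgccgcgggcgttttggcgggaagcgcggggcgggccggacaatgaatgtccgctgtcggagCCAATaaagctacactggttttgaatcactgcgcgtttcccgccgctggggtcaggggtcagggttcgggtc
Ran (chr5:129019906-129020155, plus strand): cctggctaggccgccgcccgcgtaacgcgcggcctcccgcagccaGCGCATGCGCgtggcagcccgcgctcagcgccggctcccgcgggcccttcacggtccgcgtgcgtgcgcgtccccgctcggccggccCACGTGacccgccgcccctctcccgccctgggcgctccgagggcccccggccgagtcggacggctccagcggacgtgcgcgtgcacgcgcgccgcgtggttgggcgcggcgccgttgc
Xpo5 (chr17:46202561-46202810, plus strand): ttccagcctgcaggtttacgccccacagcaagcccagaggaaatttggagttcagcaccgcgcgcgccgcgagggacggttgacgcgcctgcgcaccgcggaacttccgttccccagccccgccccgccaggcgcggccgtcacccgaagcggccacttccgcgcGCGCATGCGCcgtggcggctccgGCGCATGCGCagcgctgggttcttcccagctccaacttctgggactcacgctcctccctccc
Ipo7 (chr7:110018065-110018314, plus strand): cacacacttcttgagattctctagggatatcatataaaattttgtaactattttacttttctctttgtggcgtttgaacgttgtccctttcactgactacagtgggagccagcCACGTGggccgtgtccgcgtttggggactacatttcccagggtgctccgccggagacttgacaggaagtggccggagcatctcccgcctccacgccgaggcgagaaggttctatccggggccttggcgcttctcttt
Nup188 (chr2:30286166-30286415, plus strand): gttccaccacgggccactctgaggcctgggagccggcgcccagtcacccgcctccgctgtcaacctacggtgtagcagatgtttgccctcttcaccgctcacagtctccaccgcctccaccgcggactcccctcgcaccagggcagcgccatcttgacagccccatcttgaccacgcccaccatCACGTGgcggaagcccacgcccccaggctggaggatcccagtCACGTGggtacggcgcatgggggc
Kpna4 (chr3:69127093-69127342, minus strand): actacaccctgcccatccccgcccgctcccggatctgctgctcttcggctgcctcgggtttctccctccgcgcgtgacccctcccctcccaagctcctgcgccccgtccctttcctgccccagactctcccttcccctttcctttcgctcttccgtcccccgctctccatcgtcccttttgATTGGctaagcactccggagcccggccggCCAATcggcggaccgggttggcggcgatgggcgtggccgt
In Ran the NRF1 letters begin 205 bases and the E-box 118 bases before the start. Xpo5 has the NRF1 letters at 85 and 62 bases, Nup188 the E-box at 66 and 24 bases, and Ipo7 the E-box at 137 bases before the start. The E-box is not confined to genes that fell. Ranbp2, which rose as deposited and is not printed here, holds it at 87 bases before the start. Ranbp1 and Kpna4 hold only the CCAAT box, at 72 bases in Ranbp1 and, once on each strand, at 69 and 40 bases in Kpna4.

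The Ran cycle genes all fell, and 2 of the 4 held the lowest log2 fold changes of the 47 genes. Ranbp1, a cytoplasmic partner that helps RANGAP1 turn Ran to its GDP form, had intensities of 1329, 1337 and 1356 on the NADA arrays and 5766, 5438 and 5428 on the vehicle arrays. It was 4.13-fold lower (log2 fold change -2.05 ± 0.03), which ranks 22 from the lowest of 10526 genes. Rcc1, the chromatin-bound exchange factor that loads Ran with GTP in the nucleus, stood at 197, 174 and 196 in NADA and 646, 657 and 641 in vehicle (-1.78 ± 0.05). The groups lay far apart for both, and by the brightest probe set the other 2 genes of the cycle changed less. Rangap1, the GTPase activator on the cytoplasmic side, had 383, 399.8 and 395 in NADA and 657, 647 and 631 in vehicle (-0.72 ± 0.04). Ran gave 5354, 5248 and 5313 in NADA and 8214, 8438 and 8349 in vehicle (-0.65 ± 0.02), with no overlap between the groups.

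The value for Ran rests on a probe set of the x type, which can bind related transcripts. Of its 4 other probe sets above 38.6, the 3 of the x type gave -0.57, -0.74 and -0.50, and the only one without that mark gave -1.63. The fall of Ran was thus found in all 5, at sizes from -0.50 to -1.63. The last lies near the value of Rcc1 (-1.78), so how far Ran fell beside Rcc1 depends on the probe set.

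**Figure D3:**
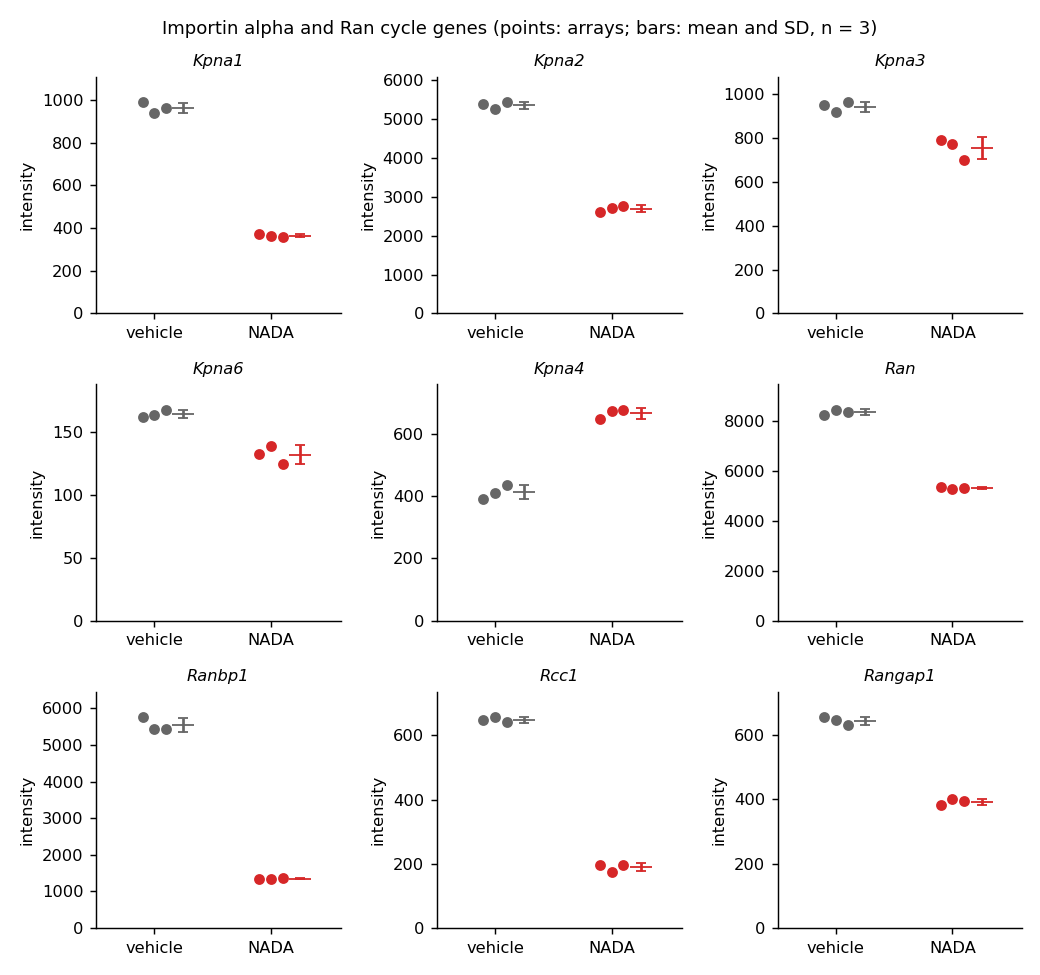
Deposited intensity (y axes, linear and from 0) of the 5 tested importin alpha genes and the 4 Ran cycle genes in vehicle and NADA; points are arrays, and bars the mean and SD of 3 arrays. The groups separate in every panel, with NADA above vehicle for Kpna4 alone (0.69 as deposited, 0.11 scaled to the poly-A control RNAs).

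Among the importin alpha genes, whose products hold the classical nuclear localization signal of a cargo, 4 of 5 tested fell and 1 rose, with log2 fold changes from -1.40 to 0.69. Kpna1, a broadly expressed member of the family, had intensities of 371, 363 and 359 in NADA and 988, 938 and 962 in vehicle (-1.40 ± 0.04). Kpna2, the form typical of proliferating cells, had 2609, 2716 and 2764 in NADA and 5375, 5253 and 5423 in vehicle (-0.99 ± 0.03). No NADA array of either gene came near the vehicle range. Kpna6, a close paralog of Kpna1, stood at 132, 139 and 124 in NADA and 162, 163 and 168 in vehicle (-0.32 ± 0.06), and Kpna3 changed by -0.32 ± 0.05. Kpna4, a close paralog of Kpna3, had 646, 673 and 677 in NADA and 391, 411 and 434 in vehicle, which is 1.62-fold higher (0.69 ± 0.05). It stood apart from the rest of the family, with every NADA array above every vehicle array. Scaled to the poly-A control RNAs Kpna4 was not called (0.11, adjusted p = 0.368). The other probe set of Kpna4 above 38.6 gave 0.13 and was not called (adjusted p = 0.494), so the rise rests on 1 probe set. All 4 other probe sets of Kpna1 fell, by 0.95 to 1.40 on the log2 scale. Kpna7, an importin alpha known from the egg and early embryo, was dim in both groups, at 18.0, 18.7 and 18.8 in NADA and 20.8, 22.5 and 19.1 in vehicle.

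The importin alpha genes were also set against each other, since a difference between 2 log2 fold changes on the same arrays is the same under every scaling by array. Of the 10 pairs of the 5 genes, 9 differed with no overlap between the arrays of the groups. The share of such pairs among other genes was not computed, and since 38.7% and 37.2% of single genes do not overlap, the count is not read as particular to these genes. In each of the 9 the two-sided exact permutation test gave p = 0.1, the smallest that 3 against 3 arrays allow, and 0.111 after Benjamini-Hochberg adjustment over the 10 pairs, so the design cannot pass 0.05 here. The log2 fold change of Kpna1 minus that of Kpna6, its paralog, was -1.08 ± 0.05 (SE). Kpna3 and Kpna4 differed by -1.02 ± 0.08, Kpna2 and Kpna4 by -1.68 ± 0.04 and Kpna1 and Kpna4 by -2.09 ± 0.07. For Kpna3 and Kpna6 the difference was -0.0064 ± 0.038 (exact permutation p = 0.9) and the groups overlapped.

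All 11 importers of the importin beta family fell, against 37.5% of all genes tested, with a median of -0.72 and a range from -1.54 to -0.12. By the brightest probe set Ipo5, an importer of ribosomal proteins and histones, fell most. It went from 1989, 1945 and 1920.0 in vehicle to 681, 690.4 and 643 in NADA (-1.54 ± 0.04). Its other probe sets above the limit gave -1.20 and -0.80. With all passing probe sets averaged, Kpnb1 (-1.48) and Ipo7 (-1.30) lay below Ipo5 (-1.18). Ipo11, an importer of a ubiquitin-conjugating enzyme, had 261, 254 and 213 in NADA and 519, 518 and 516 in vehicle (-1.10 ± 0.06). Ipo7, which imports ribosomal proteins and histone H1 together with importin beta, changed by -1.03 ± 0.05. Importin beta itself, Kpnb1, the partner of the importin alphas, changed by -0.94 ± 0.09. In Kpnb1 the brightest probe set, of the x type, gave the smallest change of 4, the others standing at -1.43, -1.48 and -2.09. With probe sets ranked by the arithmetic in place of the geometric mean intensity, an alternative chosen after seeing the data, Kpnb1 is the only one of the 47 whose brightest probe set changes, and its value is -1.43.

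The middle of this family lay close to the members' median. Ipo4, an importer of histones and ribosomal proteins, changed by -0.76 ± 0.06, Ipo13, which carries cargo in both directions, by -0.72 ± 0.06, transportin 1 (Tnpo1), the receptor for hnRNP proteins, by -0.61 ± 0.04, and Ipo9, an importer of histones, by -0.54 ± 0.05. The smallest changes were those of Tnpo2, a paralog of Tnpo1 (-0.34 ± 0.06), Tnpo3 and Ipo8. Tnpo3, the importer of SR splicing factors, had 509, 531 and 551 in NADA and 587, 609 and 648 in vehicle (-0.21 ± 0.05, adjusted p = 0.000643). Ipo8, a paralog of Ipo7, had 973, 984 and 909 in NADA and 1077, 1038 and 994 in vehicle (-0.12 ± 0.04, adjusted p = 0.0191). The groups did not overlap for either gene, but the gap of Ipo8 was narrow. It was no longer called when NADA replicate 3 was left out (-0.082, adjusted p = 0.0532), nor without vehicle replicate 1 (-0.089, adjusted p = 0.105) or vehicle replicate 2 (-0.12, adjusted p = 0.0537). After quantile normalization the change of Ipo8 was -0.036 (adjusted p = 0.411), and its 2 other probe sets were not called.

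Exportins fell in all 6 cases, against 37.5% of all genes tested, with a median of -0.72. Cse1l, which returns importin alpha to the cytoplasm, had 904, 916 and 808 in NADA and 2062, 1981 and 1951 in vehicle (-1.19 ± 0.04). Xpo5, the exporter of microRNA precursors, stood at 138, 141 and 128 in NADA and 299.8, 292 and 310.4 in vehicle (-1.15 ± 0.06), and its other probe set gave -1.08. Both were more than 2-fold lower. Xpo6, which exports actin, changed by -0.77 ± 0.05 and Xpo4, which exports the translation factor eIF5A, by -0.67 ± 0.07. Xpo1 (CRM1), the exporter for cargoes with a leucine-rich signal and for ribosomal subunits, had 1044, 1089 and 1025 in NADA and 1622, 1593 and 1614 in vehicle (-0.61 ± 0.03), and its second probe set above 38.6 gave -0.57. Xpo7, an exporter prominent in maturing red cells, had the smallest change of the exportins, at 1159, 1170.2 and 1143 in NADA and 1399, 1405 and 1338 in vehicle (-0.25 ± 0.03).

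The nucleoporin genes numbered 21, of which 20 fell and 1 rose, against 37.5% and 35.8% of all genes tested, and their median was -0.70. The positions below hold only the genes caught by the symbol rule. By position in the pore, the median was -0.91 for the 7 genes of the Y complex, -0.86 for the 4 of the inner ring and -0.49 for the 3 of the central channel. It was -0.39 for the 4 of the cytoplasmic side and -0.55 for the 2 of the nuclear basket. The single gene of the membrane ring in this list, Nup210, stood at -1.51. These differences between positions were not tested.

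The Y complex is the scaffold that coats the cytoplasmic and nuclear rims of the pore. All 7 of its genes in this list, which does not hold the whole complex, fell. Nup85 had intensities of 349, 363 and 346 in NADA and 999, 932 and 1000.0 in vehicle (-1.47 ± 0.04), and its other probe set gave -1.71. Nup43 gave 157, 157 and 153 in NADA and 333, 319.8 and 328 in vehicle (-1.07 ± 0.05). The groups lay far apart for both. With smaller changes, Seh1l had 658, 655 and 627 in NADA and 1096, 1071 and 1097 in vehicle (-0.75 ± 0.04) and 5 further probe sets between -0.79 and -0.53. Nup160 had 288, 303 and 280.1 in NADA and 461, 457 and 460.4 in vehicle (-0.66 ± 0.05). Nup107, Nup37 and Nup133 lay between these, at -0.92, -0.91 and -0.87. The smallest fall in any of their probe sets above 38.6 was that of a second probe set of Nup133 (-0.48).

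The inner ring joins the scaffold to the membrane and to the central channel. Nup205, one of its large scaffold proteins, had 616, 645 and 554 in NADA and 1368, 1342 and 1387 in vehicle (-1.18 ± 0.05), while its second probe set gave -0.44. Nup93, which anchors the ring, had 399, 413 and 409 in NADA and 753, 753 and 727 in vehicle (-0.87 ± 0.04). Nup155 stood at 335, 344 and 301 in NADA and 606, 573 and 585 in vehicle (-0.85 ± 0.05). Nup188, the paralog of Nup205, had 135, 137 and 131 in NADA and 212, 219 and 207 in vehicle (-0.66 ± 0.05). No NADA array reached the vehicle range in any of these genes. Nup210, a nucleoporin that spans the membrane and whose level varies between tissues, had 219, 244 and 215 in NADA and 658, 652 and 620.5 in vehicle (-1.51 ± 0.05). By the brightest probe set it was the lowest of the nucleoporins, 2.85-fold below vehicle. With all passing probe sets averaged, Nup85 (-1.59) lay below Nup210 (-1.51).

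The central channel holds the FG-repeat proteins that form the barrier through which receptors pass. Nup54 had 599.9, 607 and 599.9 in NADA and 997, 988 and 953 in vehicle (-0.70 ± 0.04), with 4 further probe sets from -1.19 to -0.16. Nup62 had 2581, 2535 and 2529 in NADA and 3669.9, 3477 and 3564 in vehicle (-0.49 ± 0.03). This value comes from a probe set of the x type, and the 3 other probe sets above 38.6 gave -0.78, -0.82 and -0.86. Nup98, whose transcript also codes for the Y complex protein NUP96, had 599, 614 and 590.1 in NADA and 782, 740.5 and 833 in vehicle (-0.38 ± 0.05), and its other probe set gave -0.20. Each of the 3 genes was lower on every NADA array than on any vehicle array.

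The cytoplasmic side held the exception among the nucleoporins. Ranbp2, which codes for the SUMO ligase NUP358 of the cytoplasmic filaments, had 1754, 1725 and 1572 in NADA and 1437, 1452 and 1480.3 in vehicle, 1.16-fold higher (0.21 ± 0.04, adjusted p = 0.000197). Its 3 other probe sets all rose as well, by 0.48, 0.51 and 0.26. Scaled to the poly-A control RNAs the change of Ranbp2 turned to -0.37 (adjusted p = 0.00432), still above the median of all genes under that scaling. That adjusted p is limited by the shared error of the scaling factor. As deposited, the groups did not overlap, and the lowest NADA array lay close to the highest vehicle array. The filament protein gene Nup214 had 245, 226 and 229 in NADA and 365, 367 and 371 in vehicle (-0.66 ± 0.05), and -1.14 in its other probe set. Nup88, the partner of NUP214, had 850.3, 795 and 786 in NADA and 938, 899.7 and 929.9 in vehicle (-0.19 ± 0.04), and Aaas, which codes for the pore protein ALADIN, had 254, 248 and 229.5 in NADA and 379, 354 and 362 in vehicle (-0.58 ± 0.05). All NADA arrays lay below vehicle for these genes, by the smallest margin for Nup88. Of the nuclear basket, Nup50, a cofactor of importin alpha recycling, had 399, 384 and 373 in NADA and 572, 585 and 611 in vehicle (-0.61 ± 0.04), and Nup153 had 1284, 1300.3 and 1302 in NADA and 1775, 1839 and 1851 in vehicle (-0.49 ± 0.03), again with no overlap.

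Further probe sets of the same genes, which the values above did not use, were compared with the brightest ones. Of the 48 genes 12 have a single probe set, and 32 have at least one more above the intensity limit, 64 in all. Every one of the 64 had a log2 fold change of the same sign as the brightest probe set of its gene. When each probe set was tested on its own, 58 of the 64 were called. The shares of all single-gene probe sets with the same sign, or called in that fit, were not computed. Since 73.3% of all genes tested were called, the count is not read as particular to these genes. In 34 of the 64 the change was larger than in the brightest probe set, and in 16, from 11 genes, by over 1.5 times. Beside Ran, Kpnb1, Nup62, Nup54, Nup214 and Ranbp2, described above, these were Ipo7 (-1.57), Xpo4 (-1.15), Nup153 (-0.84), Xpo7 (-0.43) and Tnpo3 (-0.43). Other probe sets gave changes smaller by over 1.5 times. These belong to Ipo5 (-0.80), Nup133 (-0.48), Nup205 (-0.44), Nup54 (-0.38 and -0.16), Nup98 (-0.20), Rangap1 (-0.18), Tnpo2 (-0.06), Ipo8 (-0.04) and Kpna4 (0.13). The probe sets thus differed from the brightest ones in both directions. Of the 64, the 6 that were not called belong to Ipo8 (2), Kpna4, Nup54, Rangap1 and Tnpo2. These probe sets share the RNA and the array with the brightest ones, so they check the probe and not the sample. The brightest probe set is of the x or s type, which can bind several transcripts, in 10 of the 48 genes.

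**Figure D4:**
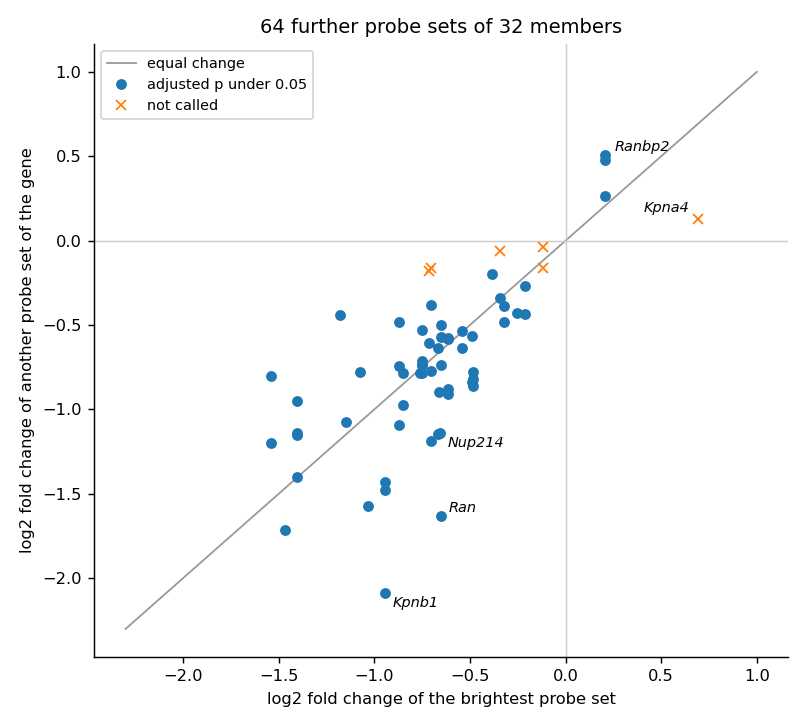
Log2 fold change of the 64 further probe sets above the intensity limit (y axis) against that of the brightest probe set of the same gene (x axis), for 32 genes; circles were called at an adjusted p under 0.05, crosses were not, and the line marks equal change. With the values as deposited, all points lie in the lower left quadrant except those of Ranbp2 and Kpna4, and 34 of the 64 have a larger change than the brightest probe set.

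Other genes of the pore, the nuclear envelope, RNA export and transport, which the symbol rule does not catch, were counted for comparison. Of 56 on the array 51 were tested, and 36 fell, 8 rose and 7 were not called, with a median of -0.38, where 37.5% of all genes tested fell and 35.8% rose. In this list 8 of 51 fell at least 2-fold, against 5.99%. Scaled to the poly-A control RNAs 0 were called higher and 44 lower, against 6.96% and 76.1% of all genes tested, with a median of -0.95. The median of these genes thus lay between those of the pore and transport genes and of all genes tested, a difference that was not tested.

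Of 20 tested pore, lamina and envelope genes 14 fell and 4 rose (37.5% and 35.8% of all genes tested). The lamin genes Lmnb1 (-1.17 ± 0.06) and Lmnb2 (-1.16 ± 0.08) fell most. Several nucleoporin genes with older or other symbols fell as well, namely Nupl2 (NUP42, 2-fold lower), Nupl1 (NUP58, -0.55), Sec13 (-0.71), Ahctf1 (ELYS, -0.72), Ndc1 (-0.70) and Pom121 (-0.63), named after their values were seen. The envelope genes Syne1, a nesprin that links the nucleus to the cytoskeleton (0.77 ± 0.06), and Tor1aip1, a lamina-associated membrane protein (0.54 ± 0.05), rose most, but scaled to the poly-A control RNAs they stood at 0.19 and -0.04 and were not called.

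Of 21 tested mRNA and tRNA export genes 14 fell and 2 rose (37.5% and 35.8% of all genes tested). Nxt1, the partner of the mRNA exporter NXF1 (-1.20 ± 0.05), and Alyref, an adaptor of the same path (-1.17 ± 0.04), fell most, while Nxf1 itself changed by -0.38 ± 0.04 and the tRNA exportin Xpot by -0.48 ± 0.03, both named after their values were seen. Ddx25, an RNA helicase known from the testis (0.83 ± 0.07), and Thoc2, a subunit of the THO complex (0.46 ± 0.05), rose, though they were not called after the poly-A scaling (0.25 and -0.12). Among 10 other transport factors 8 fell and 2 rose, beside the same shares of all genes tested. Rangrf (MOG1), a Ran-binding nucleotide release factor, changed by -1.33 ± 0.06 and Rcc2 by -1.12 ± 0.04. Ranbp10 (0.81 ± 0.05) and Ranbp9 (0.57 ± 0.04), paralogous scaffold proteins that bear the Ran-binding name, rose, and after the poly-A scaling they stood at 0.23 and -0.01 and were not called.

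**Figure D5:**
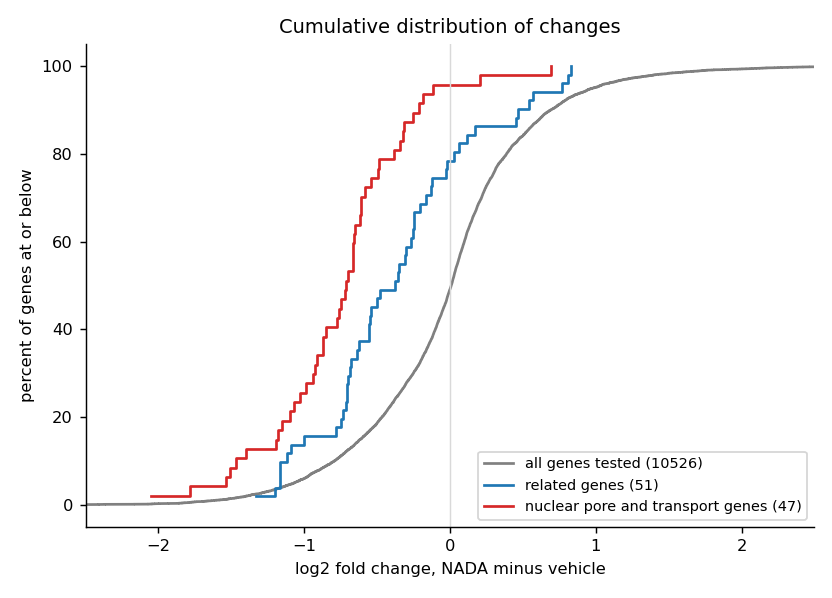
Percent of genes (y axis) at or below each log2 fold change, NADA minus vehicle (x axis, cut at both ends), for the 47 pore and transport genes, the 51 related genes and all 10526 genes tested. The medians are -0.72, -0.38 and 0.0089; scaling to the poly-A control RNAs moves each curve to the left by 0.58.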

How the data were processed

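RNA of 6 samples was hybridised to 6 arrays. The deposited intensities, 1 per probe set and array, run from 2.19 to 20113 and are linear. The submitters' processing notes list MAS5 and RMA, without role or version. The values were therefore taken as summarised and normalized between arrays, which the notes do not state. Such a normalization takes the bulk of genes as equal on all arrays. Array medians were 37.9 to 39.1.

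Of 45037 probe sets other than the 64 controls, 34945 were annotated to 1 gene and used. The brightest by geometric mean was kept per gene, and those under 38.6 were not tested. The groups were compared with limma 3.58.1 in R 4.3.3 (lmFit, eBayes with an intensity trend, two-sided, group as the only term). The procedure was run on simulated data with few changed genes and separate noise for each gene. In the real data 73.3% of genes were called and shifts of whole arrays are shared, so the simulation does not check the calls made here. Single probe sets were tested in a separate fit over all single-gene probe sets with no dim filter. For arrays, their number limits the precision.

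The genes, role lists, related genes and motifs were chosen with earlier results of these data known, and Nupl1 and Nupl2 joined the related list under these older symbols. In each role list the 2 highest and 2 lowest members are given on every array; of each related list, the 2 highest and 2 lowest called genes are named. Alternatives covered scaling, pseudocount, floor, dim filter, trend, array weights, probe sets, thresholds, a replicate block and leaving out each array.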

Additional observations from a re-analysis of the deposited data

How the results depend on the processing

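Of the 45 members that fell, the same 45 or all but Ipo8 were called lower under every alternative run, except a minimum of 1.5-fold (33 of 45) and the fit without x and s probe sets, which has no probe set for Nup107 (44 of 46 tested). Leaving out 1 array gave 46 to 47 members called and a median of -0.72 to -0.69. The replicate block called 47 members and 7742 genes; the replicate numbers did not pair the arrays (same-number correlations of 0.165, -0.10 and 0.019), and the block changed no call of a member.

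Members called higher numbered 1 with a minimum of 1.5-fold and 0 after scaling to the poly-A control RNAs, where Ranbp2 reversed to -0.37. The members' median was -0.67 with 32 added before log2, -0.78 with all passing probe sets averaged, -0.75 after median centring, -0.65 after quantile normalization and -1.29 after the poly-A scaling, where the error of the scaling factor is shared by all genes. Genes called over the whole table numbered 3031 at 1.5-fold or more (1369 higher, 1662 lower), and 733 higher and 8009 lower after the poly-A scaling. Related genes called numbered 22 at 1.5-fold or more (3 higher, 19 lower), and 0 higher after the poly-A scaling. There the related genes Emd (-0.41), Nup210l (-0.55), Phax (-0.46), Ranbp9 (-0.011), Sun1 (-0.52), Sun2 (-0.11), Thoc2 (-0.12) and Tor1aip1 (-0.036) changed sign. Of single values of members under these alternatives, 963 kept direction and call, 22 lost the call and 1 reversed; of related genes 1014 kept both, 28 lost the call, 15 gained it and 8 reversed.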
